A study of Mus musculus with 32 samples.

Results

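The comparison sets β cell libraries taken 1 week after doxycycline (Dox) was withdrawn (1wk WD, n = 3) against β cell libraries taken after 1 week of Dox (1wk Dox, n = 5). These 8 libraries, of 32 in the series, were chosen by cell type and time point alone. All came from adult C57BL/6 mice carrying the same transgenes, RIP-rtTA and TetO-VEGF-A (together βVEGF-A) with MIP-GFP. The rat insulin promoter of RIP-rtTA places the Dox-dependent activator in β cells, where Dox in the drinking water switches on human VEGF-A, so mouse *Vegfa* does not measure the induced factor. MIP-GFP places GFP under the mouse *Ins1* promoter, and the β cells were sorted from dispersed islets as GFP+ cells lacking the EC marker CD31 and the MΦ marker CD11b. The 1wk WD mice had been on Dox before it was taken away, so both groups had been exposed to VEGF-A. The 1wk Dox mice were taken during induction. The groups thus differ in current VEGF-A induction, in the presence of Dox itself and in time, which cannot be told apart here. Each library pooled islets of several mice, and the labels do not tie libraries to animals, so the p-values below measure the spread between these libraries, part of which may be technical.

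β cells are the insulin-secreting cells of the islet, and their own VEGF-A maintains the dense capillaries around them. In this model an excess of VEGF-A expands the ECs, β cells are lost and MΦs enter the islet, and after withdrawal the surviving β cells divide and the islet recovers. The comparison therefore asks how gene expression in the β cell sort differs between the phase of β cell loss and the start of recovery.

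Values are scores, the normalized expression of each gene as deposited, rounded to whole numbers and never below 1, so a gene listed at 1 may be undetected. Summed over genes, scores reached 23465985 to 29612201 per 1wk Dox library and 27728760 to 39053769 per 1wk WD library. Score totals are not read depth, which is unknown here. *Ins1* and *Ins2*, the mouse insulin genes that mark β cells, were the highest genes, or within a rank or so of them, in every library. Together they took 1.78 to 8.93% of the summed score at 1wk Dox. At 1wk WD they took 1.99% in replicate 1, 5.98% in replicate 2 and 26.6% in replicate 3. The 1wk WD libraries thus had the wider range, and the difference in means was within this spread (exact permutation test, two-sided, p = 0.536, adjusted p = 0.714 over 4 library measures, where 0.0357 is the smallest p that 56 splits allow). The share of the 10 highest genes, the summed score and the number of genes above 1 gave exact p-values of 0.536, 0.321 and 0.964.

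Replicate 3 of the 1wk WD group stood apart from the other libraries of its group. The Spearman correlation of gene scores was 0.947 between 1wk WD replicates 1 and 2, but 0.798 between replicates 1 and 3 and 0.870 between replicates 2 and 3. With 1wk Dox replicates 2 and 5 it was 0.947 and 0.942 for replicate 3. The first principal component, 40.2% of the variance, put 1wk WD replicate 1 at one end and replicate 3 at the other, next to 1wk Dox replicate 5. The library label of replicate 3 carries the number 56, where those of the other libraries run from 31 to 37.

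Marker lists showed what else the sort held. The 28 β cell identity genes (insulins, transcription factors, granule and glucose-sensing genes) took 3.60 to 13.1% of the summed score at 1wk Dox and 3.51, 8.42 and 30.6% in 1wk WD replicates 1, 2 and 3. Stromal and pericyte markers, such as the pericyte gene *Rgs5*, took 0.370 to 1.97% at 1wk Dox. In 1wk WD replicates 1 and 2 they took 1.36 and 1.16%, but in replicate 3 only 0.0680%. Acinar markers, the digestive enzymes of the exocrine pancreas, took 0.00740 to 0.103% at 1wk Dox, and 2.71, 0.473 and 0.0190% in 1wk WD replicates 1, 2 and 3. Replicate 3 was therefore the most β cell-rich library by this measure and had the least stromal signal. Endothelial markers took 0.00770 to 0.268% in 1wk Dox and 0.0328 to 0.0575% in 1wk WD libraries. MΦ markers took 0.00645 to 0.0235% and 0.0189 to 0.0282%, in the same order. None of the markers in these lists was at 1 in all 8 libraries. In whole-population libraries fewer cells of a type and less RNA per cell cannot be told apart, and the part of these other cells in the results below was not tested.

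**Figure D1:**
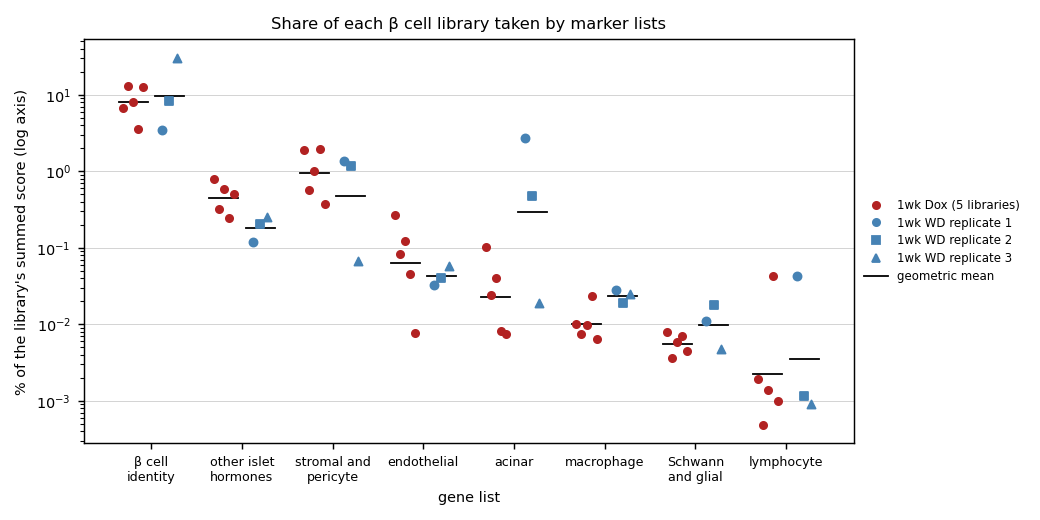
Share of each library's summed score taken by 8 marker lists (percent, log axis), with 1 point per library for 1wk Dox (red) and 1wk WD (blue, 1 symbol per replicate) and the geometric mean as a line. The β cell identity share of 1wk WD replicate 3 is 30.6% and its stromal share 0.0680%, outside the 1wk Dox range on both counts, whereas the acinar share is highest in 1wk WD replicates 1 and 2.

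No gene passed the threshold of a fold change of 2 or more and an adjusted p under 0.05 (limma with Benjamini-Hochberg adjustment). Genes had to average a score of 20 or higher in either group to be tested. Of the 16101 that did, 0 (0%) were called, and the lowest adjusted p was 0.598. Among genes described below, *Inmt*, *Tnf*, *Lamb3*, *Gfap* and *C1qb* passed this filter only through their 1wk WD mean. *Ryr2*, *Ska1* and *Fosl1* passed only through their 1wk Dox mean. For such genes a separation of the groups is a description only. At an unadjusted p under 0.05 and a fold change of 2 or more, 447 genes were higher at 1wk WD (2.78% of those tested) and 189 were lower (1.17%). By fold change alone, 1576 genes were higher (9.79%) and 833 lower (5.17%). The groups did not overlap for 485 genes higher at 1wk WD (3.01%) and 326 lower (2.02%). These percentages are the background for every list below. Counting differences of any size, 54.2% of genes had the higher mean at 1wk WD, and the median difference over all genes was 0.05 on the log2 scale. Without 1wk WD replicate 3, 141 of 16167 genes were called (0.872%), 137 higher and 4 lower. By fold change alone 17.6% of all genes were then higher and 7.08% lower, and these are the background for list counts without that library. The median of all genes stayed at 0.05. All differences below are 1wk WD minus 1wk Dox on log2(score + 1), which understates the change of low genes, and the genes named in full are described with their values because none passed the adjusted threshold with all 8 libraries.

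Genes of antigen presentation had higher means at 1wk WD. *Cd74* encodes the invariant chain that escorts MHC class II molecules. Its score was 8575, 9154, 12341, 29537 and 8717 at 1wk Dox against 59816, 62815 and 42163 at 1wk WD. All 3 withdrawal libraries lay above all 5 Dox libraries, a difference of 2.17 ± 0.43 (log2, SE), or 4.51-fold (adjusted p = 0.631, limma). *H2-Ab1*, *H2-Aa* and *H2-Eb1* encode the class II chains that present peptides to T cells. *H2-Ab1* was at 2825, 2374, 2593, 9639 and 2667 at 1wk Dox against 14980, 17191 and 7174 at 1wk WD. *H2-Aa* was at 2424, 3209, 2592, 7005 and 2581 against 13299, 14274 and 4533, and *H2-Eb1* at 1059, 1206, 1106, 3745 and 1289 against 5787, 6093 and 2942. For all 3 class II genes 1wk Dox replicate 4 was the high Dox library and overlapped 1wk WD replicate 3, the low withdrawal library. The differences were 1.86 ± 0.49, 1.55 ± 0.46 and 1.68 ± 0.44.

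Because the class II genes had higher means together, the promoters of the pair with an entry in the RefSeq promoter table (GRCm38.p6, 250 bases before to 50 after the gene start) are shown. The capitals mark CTGATTGG, the core of the Y box that class II promoters are known for, searched on both strands. *H2-Aa* lies at chr17:34287774-34288073, minus strand, and *H2-Eb1* at chr17:34305617-34305916, plus strand.
H2-Aa: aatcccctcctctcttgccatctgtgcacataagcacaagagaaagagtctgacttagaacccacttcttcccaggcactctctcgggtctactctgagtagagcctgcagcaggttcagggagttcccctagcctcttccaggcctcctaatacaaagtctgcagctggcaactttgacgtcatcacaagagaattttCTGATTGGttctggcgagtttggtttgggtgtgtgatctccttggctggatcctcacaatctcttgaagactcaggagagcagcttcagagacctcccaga
H2-Eb1: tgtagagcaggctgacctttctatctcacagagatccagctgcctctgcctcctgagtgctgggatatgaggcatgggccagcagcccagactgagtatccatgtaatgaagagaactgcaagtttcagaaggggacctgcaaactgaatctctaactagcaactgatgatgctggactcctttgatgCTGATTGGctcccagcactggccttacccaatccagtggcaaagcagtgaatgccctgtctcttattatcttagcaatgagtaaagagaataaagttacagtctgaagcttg
The match started 51 bases before the gene start in *H2-Aa* and 62 bases before it in *H2-Eb1*. These letters were held by 4.1% of all 32851 promoters given, and of the 22 antigen presentation genes with an entry 4 did (18.2%), a share like that of the mitotic genes described further on (5 of 27, 18.5%). The genes are on chromosome 17, and the match is a description of the letters only.

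Other genes of dendritic cells, which carry antigen to lymph nodes, were higher in mean as well. *Ccr7*, the chemokine receptor that guides dendritic cells to lymph nodes, was at 395, 490, 736, 745 and 1000 at 1wk Dox against 3596, 3062 and 1433 at 1wk WD. The groups did not overlap, and the difference was 1.97 ± 0.39 (3.92-fold, adjusted p = 0.631, limma). *Cd83*, a marker of mature dendritic cells, was at 446, 906, 806, 1544 and 1119 against 4868, 4186 and 1879. *Ctss*, the cathepsin that trims the invariant chain, was at 153, 70, 182, 282 and 47 against 652, 637 and 442. Both also separated the groups, with differences of 1.92 ± 0.43 and 2.22 ± 0.59. *Ciita*, the master regulator of class II transcription, was at 289, 275, 345, 569 and 266 against 2323, 1634 and 310, so that its difference of 1.66 ± 0.60 rested on 1wk WD replicates 1 and 2. *Xcr1*, a receptor of cross-presenting dendritic cells, had the same form, at 270, 180, 292, 682 and 149 against 1791, 1548 and 216. Without replicate 3, *Ccr7*, *Cd83*, *Ciita* and the integrin *Itgae* were called, at log2 differences of 2.38, 2.34, 2.54 and 2.39 and adjusted p-values of 0.0286, 0.0428, 0.0260 and 0.0334 (limma). Of 31 antigen presentation and dendritic cell genes, a list drawn up after these values were seen and so no evidence of direction, 23 were at least 2-fold higher and 0 at least 2-fold lower, against 9.79 and 5.17% of all genes, with a median difference of 1.52, and 2.10 without replicate 3. The list's mean log2 score was 7.98 to 9.24 in 1wk Dox libraries. In 1wk WD replicates 1, 2 and 3 it was 10.55, 10.28 and 8.84, so that replicate 3 lay within the Dox range.

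Most MΦ markers were also higher in mean, many of them at low scores. Of 14 markers 11 were at least 2-fold higher at 1wk WD and 1 at least 2-fold lower, with a median difference of 1.37. Without replicate 3 these were 8 higher, 3 lower and a median of 1.18. The mean log2 score of the list was 5.46 to 6.52 in 1wk Dox libraries. At 1wk WD it was 5.72, 6.72 and 8.99 in replicates 1, 2 and 3, so that replicate 1 lay within the Dox range. *Lyz2* (lysozyme) was at 118, 269, 163, 111 and 141 at 1wk Dox against 479, 477 and 2266 at 1wk WD. *Csf1r*, the receptor that MΦs need for survival, was at 1650, 702, 1322, 1294 and 508 against 3040, 2534 and 1687. *Cd68*, a lysosomal protein of phagocytes, was at 304, 363, 225, 389 and 231 against 774, 627 and 455. These genes and *Tyrobp*, a signalling adaptor of myeloid cells, were the 4 of 14 whose groups did not overlap. Their differences were 2.39 ± 0.57, 1.23 ± 0.40, 1.03 ± 0.33 and 1.61 ± 0.61. That of *Lyz2* was 1.65 without replicate 3, its highest library. The complement genes of resident MΦs followed replicate 3 instead. *C1qb* was at 4, 14, 24, 27 and 4 at 1wk Dox and at 1, 28 and 718 in 1wk WD replicates 1, 2 and 3. *C1qa* was at 95, 128, 150, 33 and 102 against 1, 12 and 380. The surface markers *Itgam*, which encodes the CD11b used to gate MΦs out, and *Emr1* were at 10 to 88 and 4 to 60 in 1wk Dox libraries, and at 34, 97 and 294 and 36, 36 and 518 in 1wk WD replicates 1, 2 and 3. The class II and dendritic cell genes were thus highest in 1wk WD replicates 1 and 2, and *C1qa*, *C1qb*, *Itgam*, *Emr1* and *Lyz2* in replicate 3.

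**Figure D2:**
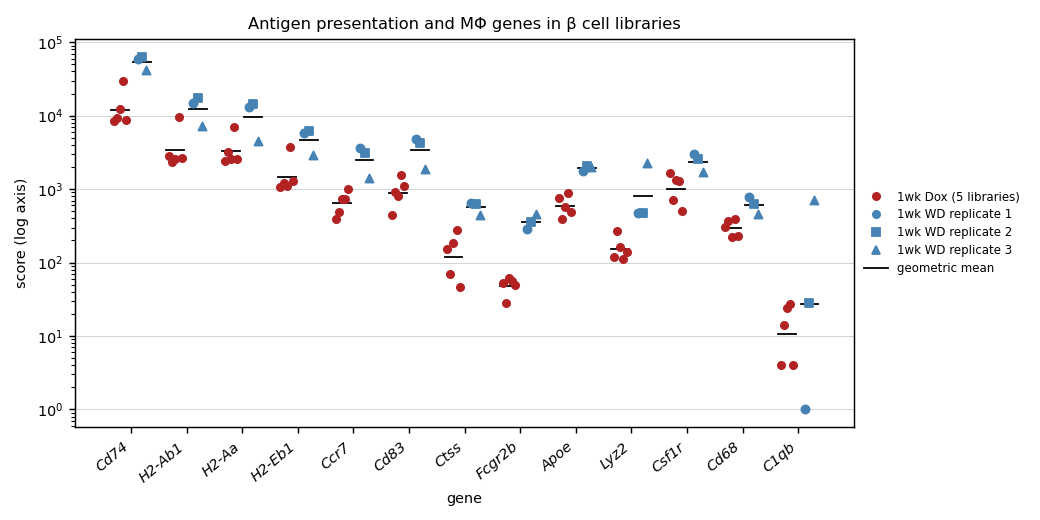
Scores (log axis) of 13 antigen presentation and MΦ genes in the 5 1wk Dox (red) and 3 1wk WD (blue, 1 symbol per replicate) β cell libraries, with the geometric mean as a line. For *Cd74*, *Ccr7*, *Cd83*, *Ctss*, *Fcgr2b*, *Apoe*, *Lyz2*, *Csf1r* and *Cd68* every 1wk WD point lies above every 1wk Dox point, whereas *C1qb* spans 1 to 718 at 1wk WD.

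Other genes known from myeloid cells were among the 10 higher genes with the smallest p, at least 2-fold apart and without overlap. *Fcgr2b*, the inhibitory Fc receptor for IgG, was at 52, 28, 61, 56 and 49 at 1wk Dox against 287, 359 and 455 at 1wk WD, a 7.44-fold difference (2.89 ± 0.46, adjusted p = 0.598, limma). *Apoe*, a lipid carrier that MΦs express strongly, was at 768, 390, 564, 890 and 486 against 1742, 2050 and 2003 (1.70 ± 0.29). In both genes the groups were apart, although 1wk Dox libraries differed among themselves by over 2-fold. *Arhgap25*, a GTPase-activating protein of blood cells, was at 578, 345, 367, 387 and 171 against 2071, 1398 and 1027. *Tbxas1*, thromboxane synthase, was at 274, 294, 297, 477 and 422 against 1330, 985 and 788. These differences were 2.06 ± 0.40 and 1.55 ± 0.31, and no library crossed between the groups.

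In sorted MΦs of the same time points these genes and *Cd74*, *Cd83*, *Ctss* and *Ciita* stood far higher. *Cd74* was between 799760 and 950480 in the 4 1wk WD MΦ libraries, *Apoe* between 97213 and 126150, and *Fcgr2b* between 17359 and 26977. The 1wk WD β cell scores of *Fcgr2b* were thus a small part of the MΦ level, and the same held for *Cd74* and *Apoe*. It did not hold for *Ccr7*, *Xcr1* and *Itgae*. In 1wk WD MΦ libraries *Ccr7* was at 3023 to 5097, a range that held β cell replicates 1 and 2 (3596 and 3062). *Xcr1* was at 70 to 236 and *Itgae* at 731 to 1202. Both were higher in 1wk WD β cell replicates 1 and 2, at 1791 and 1548 and at 3625 and 2204. The response of each gene was compared between β cells and MΦs with the interaction of cell type and time point. Of 14132 genes tested 1 was called (0.00708%), and 4.8% passed a 2-fold difference at an unadjusted p under 0.05. The gene called was *Fcgr2b*, whose difference was higher in β cells than in MΦs by 3.16 ± 0.39 (log2, SE, adjusted p = 0.0204, limma). Its MΦ score was 26024 to 27290 in the 2 1wk Dox libraries, which overlaps the 1wk WD range. The call was lost without any 1 of the 6 MΦ libraries or without 1wk WD β cell replicate 2, where 0 genes were called. With the replicate number as a block 0 genes were called as well, whether the block joined time points or cell types, although the labels do not say that a number marks shared mice. Without 1wk WD β cell replicate 3, 84 genes were called, and 29 without 1wk Dox β cell replicate 4.

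Chemokines and cytokines attract and instruct leukocytes through their receptors. Of 29 such genes, ligands and receptors together, 20 had a higher and 9 a lower mean at 1wk WD, against 54.2% higher among all genes. Of these, 8 were at least 2-fold higher and 0 at least 2-fold lower, with a median difference of 0.57. Without replicate 3 these were 11, 1 and 0.78. *Ccr2*, the receptor that brings monocytes into tissue, was at 44, 120, 66, 201 and 43 at 1wk Dox against 662, 766 and 190 at 1wk WD (2.53 ± 0.68, and 3.16 without replicate 3). *Tnf*, an inflammatory cytokine, was at 4, 19, 12, 27 and 11 against 31, 288 and 188 (3.17 ± 0.92, and 2.53 to 4.12 on leaving out 1 library). *Cxcl2*, a neutrophil attractant, was at 102, 48, 174, 26 and 22 against 185, 216 and 279 (2.00 ± 0.73). In *Tnf* and *Cxcl2* the groups did not overlap, but the 1wk Dox mean of *Tnf*, 14.6, was below the filter. Lymphocyte markers did not separate by time point, since *Cd8a*, a marker of cytotoxic T cells, reached 5168 in 1wk Dox replicate 4 and 3276 in 1wk WD replicate 1, and lay between 15 and 70 in the other 6 libraries. The helper T cell marker *Cd4* was between 15 and 284 at 1wk Dox against 5860, 226 and 180 at 1wk WD.

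β cell identity genes showed no shift of 2-fold or more in either direction. Of 28 genes 12 were higher and 16 lower in mean, and in 0 of them did the groups separate. The median difference was -0.09. Without replicate 3 it was -0.60, and 1 gene was at least 2-fold lower, whereas without 1wk WD replicate 1 it was 0.38. *Mafa*, a driver of insulin transcription in mature β cells, was at 3844, 6599, 7493, 3022 and 9108 at 1wk Dox against 4439, 4455 and 15323 at 1wk WD. *Pdx1*, needed for β cell development and function, was at 3146, 6753, 6633, 2901 and 7314 against 3727, 4149 and 12821. In both genes replicate 3 lay above every 1wk Dox library and the other 1wk WD libraries lay within the Dox range, so that the differences of 0.28 ± 0.50 and 0.23 ± 0.48 became -0.32 and -0.33 without it. *Slc2a2*, the glucose transporter of mouse β cells, likewise went from 0.52 ± 0.60 to -0.08. *Ins1* and *Ins2* differed by 0.72 ± 1.82 and 0.55 ± 1.53 with all libraries and by -0.35 and -0.69 without replicate 3. *Isl1*, a transcription factor of all islet endocrine cells, was at 3335, 7279, 7208, 3296 and 7802 against 2247, 3523 and 4377. It had the smallest unadjusted p of the list (0.0858, limma) at a difference of -0.72 ± 0.38, with overlapping groups.

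Among 11 genes of the other islet hormones and their factors 8 had a lower and 3 a higher mean at 1wk WD, with a median difference of -0.14. On leaving out 1 library the median ran from -0.92 (1wk WD replicate 3) to 0.05 (1wk Dox replicate 3). *Ppy*, pancreatic polypeptide, was at 33255, 16273, 18356, 14552 and 22868 at 1wk Dox against 7614, 8244 and 9200 at 1wk WD. *Pyy*, peptide YY, was at 26156, 17213, 23705, 13256 and 21089 against 7268, 10180 and 2825. For both genes all 3 withdrawal libraries lay below all 5 Dox libraries, with differences of -1.27 ± 0.29 (2.42-fold) and -1.73 ± 0.41 (3.32-fold), each at an adjusted p of 0.631 (limma). *Gcg*, the glucagon gene of α cells, was at 93820, 38982, 66003, 10223 and 60588 against 2313, 5353 and 23705, a difference of -2.70 ± 0.85, and -3.62 without replicate 3. Here 1wk Dox replicate 4 fell between the withdrawal values, so the groups overlapped. *Ttr*, transthyretin, which α cells express strongly, differed by -1.14 ± 0.47. *Sst*, the somatostatin gene of δ cells, was at 57646, 15642, 53031, 17503 and 35897 against 12667, 32179 and 56643 and differed by -0.14 ± 0.60. Of the 11 genes 5 were at least 2-fold lower and 1 at least 2-fold higher.

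*Tph1* and *Matn2*, which were far lower in 1wk WD MΦ libraries (2 to 9 and 330 to 493), had higher means in β cells after withdrawal. *Tph1*, which makes serotonin in β cells and is known from the islet response to pregnancy, was at 556, 1270, 812, 238 and 890 at 1wk Dox against 1384, 11891 and 9487 at 1wk WD. The groups separated, narrowly for replicate 1, and the difference was 3.04 ± 0.74 (8.20-fold, adjusted p = 0.631, limma). On leaving out 1 library it ran from 2.46 to 4.01. *Matn2*, a matrilin of the extracellular matrix, was at 2245, 3508, 2543, 2826 and 3980 against 8013, 9766 and 5371 (1.34 ± 0.26). *Tph1* and *Matn2* were the 2 of 15 pregnancy program genes that were at least 2-fold higher. Of untreated libraries (No Dox, n = 4) *Tph1* was at 17863, 13579, 6586 and 818 and *Matn2* at 9977, 8880, 5215 and 8438, so that the *Matn2* scores at 1wk WD lay close to those of untreated mice. *Prlr*, the prolactin receptor that acts upstream of *Tph1*, was at 18300, 48270, 32632, 11995 and 45413 against 18761, 38525 and 81885. Replicate 3 lay above every 1wk Dox library and the other 1wk WD libraries within the Dox range, and the difference of 0.50 ± 0.60 became -0.032 without it. The list as a whole had a median difference of 0.27, and -0.20 without replicate 3.

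*Orai2*, a channel subunit for store-operated calcium entry, was at 959, 1194, 1260, 1124 and 1288 at 1wk Dox against 2343, 2614 and 4018 at 1wk WD (1.33 ± 0.22, 2.51-fold). *Txnl4a*, a part of the spliceosome, was at 498, 529, 466, 434 and 603 against 953, 1095 and 1199 (1.10 ± 0.22). Spread within each group was small for *Txnl4a*, whereas *Orai2* ranged more widely at 1wk WD, and in neither gene did the groups overlap. *Inmt*, an indole N-methyltransferase, was at 6, 2, 3, 1 and 1 against 303, 533 and 83, so that the 1wk Dox values lay at or near the lowest score and no fold change is given. Its unadjusted p, 5.3e-05 (limma), was the smallest of the genes named here. In No Dox libraries *Inmt* ran from 1 to 2095.

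Among metabolic genes *Pdk1* and *Pfkfb3* were higher in every 1wk WD library. *Pdk1*, the kinase that turns down pyruvate dehydrogenase, was at 557, 657, 614, 565 and 497 at 1wk Dox against 1240, 928 and 2255 at 1wk WD (1.25 ± 0.30). *Pfkfb3*, which speeds glycolysis, was at 858, 686, 823, 1067 and 1033 against 1369, 1761 and 2398 (1.02 ± 0.25). Both are known targets of hypoxia signalling, but of 23 such targets 3 were at least 2-fold higher and 2 at least 2-fold lower, with a median difference of -0.03, and 6 were higher without replicate 3. *Vegfa*, also a target, was at 6436, 11265, 10251, 4584 and 13766 against 2418, 4680 and 15329, within the spread (-0.62 ± 0.57, and -1.35 without replicate 3). *Ldha*, a lactate dehydrogenase that mature β cells keep low, was at 2621, 979, 1553, 5391 and 472 against 1018, 1475 and 170.

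*Csmd3* encodes a large membrane protein with CUB and sushi domains. It had the lowest p among genes at least 2-fold lower at 1wk WD, without overlap and with a 1wk Dox mean of at least 100. Its score was 4977, 17999, 10680, 3451 and 9892 at 1wk Dox against 1514, 539 and 945 at 1wk WD, a difference of -3.12 ± 0.54 (8.71-fold, adjusted p = 0.598, limma). Every withdrawal value lay below every Dox value, but above the 27 to 101 of the 4 No Dox libraries. *Ryr2*, a calcium release channel of the endoplasmic reticulum, was at 112, 109, 105, 178 and 62 against 20, 13 and 2 (-3.50 ± 0.76, and -2.66 without replicate 3). *Zfp365*, a zinc finger gene, was at 269, 243, 313, 306 and 355 against 100, 72 and 61 (-1.94 ± 0.37). *Calm2*, a calmodulin gene, was at 9935, 8136, 6169, 8505 and 6758 against 3934, 4362 and 3196 (-1.04 ± 0.22). These genes, with the histone chaperone *Nap1l1* and the stress granule gene *G3bp2*, had no overlap between the groups. *Nap1l1* differed by -1.05 ± 0.24 and *G3bp2* by -1.14 ± 0.27, and *G3bp2* was 1 of the 4 lower genes called without replicate 3 (-1.46, adjusted p = 0.0271, limma). The others were *Kpna2*, *Nap1l2* and *Aard*, named here because the count stands on them.

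**Figure D3:**
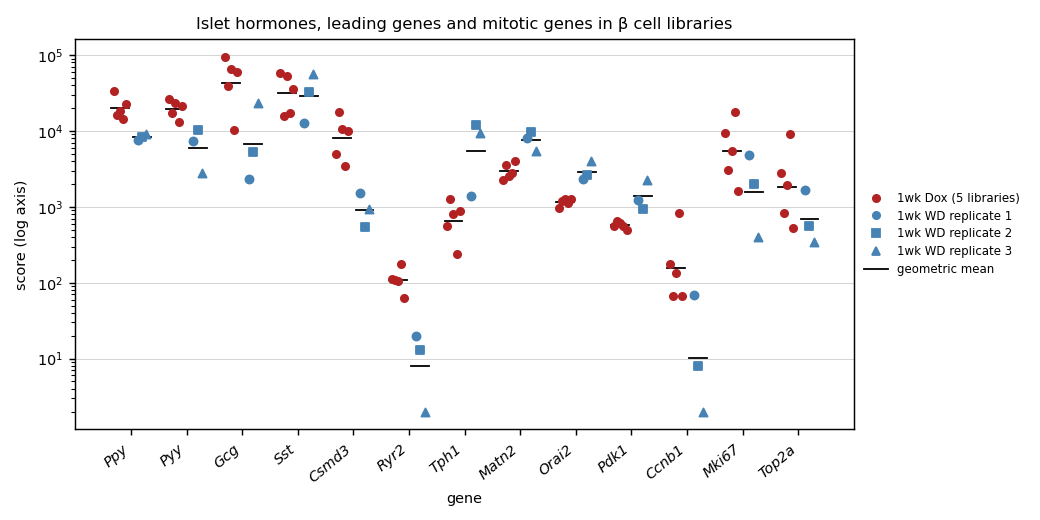
Scores (log axis) of islet hormone genes, leading genes and mitotic genes in the 5 1wk Dox (red) and 3 1wk WD (blue, 1 symbol per replicate) β cell libraries, with the geometric mean as a line. *Ppy*, *Pyy*, *Csmd3* and *Ryr2* are lower and *Tph1*, *Matn2*, *Orai2* and *Pdk1* higher in every 1wk WD library than in any 1wk Dox library, whereas *Sst*, *Ccnb1*, *Mki67* and *Top2a* overlap.

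Mitotic and replication genes, whose transcripts mark dividing cells, were lower in mean at 1wk WD. Of 34 genes 33 had a lower mean, 16 were at least 2-fold lower and 0 at least 2-fold higher, with a median difference of -0.82. Without 1wk WD replicate 3 only 6 were at least 2-fold lower, and the median was -0.55. On leaving out 1 library it ran from -1.35 (1wk Dox replicate 5) to -0.50 (1wk Dox replicate 4). *Ccnb1*, the cyclin that drives entry into mitosis, was at 178, 66, 135, 823 and 67 at 1wk Dox against 69, 8 and 2 at 1wk WD (-3.65 ± 1.15). *Mki67*, the usual proliferation marker, was at 9308, 3036, 5460, 17867 and 1620 against 4843, 1986 and 400 (-1.78 ± 0.90). *Top2a*, the topoisomerase of replicating chromosomes, was at 2809, 818, 1916, 9057 and 525 against 1684, 561 and 341 (-1.42 ± 0.87). In each gene 1wk Dox replicate 4 was the highest library and 1wk WD replicate 3 the lowest, and the groups overlapped. Without replicate 3 the differences were -2.63, -0.79 and -0.92. Replicate 4 also had the highest stromal, MΦ and lymphocyte shares of the Dox group, and replicate 3 the lowest stromal share of all, and their part in the mitotic scores was not tested. *Kif20a*, a mitotic kinesin, was the only gene of the 34 with separate groups, at 359, 246, 387, 475 and 234 against 226, 228 and 232 (-0.52 ± 0.35). Outside the list, *Ncapg2*, a condensin subunit, was at 1058, 1035, 1275, 1710 and 1201 against 333, 714 and 541, and *Ska1*, which couples kinetochores to the spindle, at 144, 51, 68, 366 and 19 against 4, 6 and 1. *Cdkn2c*, an inhibitor of CDK4 and CDK6 that dividing cells also express, differed by -1.81 ± 0.53 and was the only 1 of 8 cell cycle inhibitors at least 2-fold apart. Without replicate 3 it was at -1.46, and another inhibitor was at least 2-fold higher. *Cdk4*, the G1 kinase on which β cell growth depends, differed by -0.61 ± 0.27.

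The *Ccnb1* promoter is shown as that of the gene with the smallest p among the 34 of the mitotic list, since CCAAT boxes are a known feature of such promoters. It lies at chr13:100786437-100786736, minus strand (RefSeq, GRCm38.p6), and capitals mark CCAAT, searched on both strands, which overlaps the last letters of the Y box on its other strand.
Ccnb1: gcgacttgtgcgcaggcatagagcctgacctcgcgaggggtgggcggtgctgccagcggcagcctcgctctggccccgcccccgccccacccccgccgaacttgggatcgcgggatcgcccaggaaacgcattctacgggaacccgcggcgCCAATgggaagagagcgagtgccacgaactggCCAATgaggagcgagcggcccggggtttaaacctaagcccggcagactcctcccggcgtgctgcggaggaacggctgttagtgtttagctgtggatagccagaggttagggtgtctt
It held 2 matches, starting 99 and 67 bases before the gene start. The letters were in 37.4% of all 32851 promoters and in those of 21 of the 27 mitotic genes with an entry (77.8%). A match does not show a bound factor.

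Genes of the respiratory chain and of the ribosome had slightly lower means at 1wk WD almost throughout. Of 37 oxidative phosphorylation genes 34 had a lower mean, with a median difference of -0.38, and 4 were lower without overlap. At least 2-fold lower were 2, and 8 without replicate 3, where the median was -0.65. Without 1wk WD replicate 1 it was -0.09. *Sdhd*, a subunit of succinate dehydrogenase, was at 2031, 2625, 1938, 2376 and 1769 against 597, 1478 and 1228 (-1.05 ± 0.30). *Cox4i1*, of cytochrome c oxidase, was at 1895, 2151, 1070, 2735 and 1972 against 670, 1051 and 1023 (-1.07 ± 0.31). *Atp5b*, of ATP synthase, differed by -0.67 ± 0.26. All 29 ribosomal protein genes had a lower mean, with a median difference of -0.61, none at least 2-fold. Without replicate 3 the median was -0.83 and 6 were at least 2-fold lower, and without 1wk WD replicate 1 the median was -0.38. *Rpl5* was at 6504, 7587, 4913, 10979 and 7123 against 4003, 3908 and 4783, and *Rpl3* at 3074, 3468, 2552, 3798 and 3037 against 1530, 2206 and 2459. Housekeeping genes had a median of -0.14, and -0.41 without replicate 3. *Hprt*, a purine salvage enzyme often used as a reference, was itself lower, at 1625, 2091, 1549, 1446 and 1294 against 509, 841 and 1140 (2.01-fold). The mitochondrial chaperone *Hspe1* differed by -1.27 ± 0.35 without overlap, and *Phgdh*, of serine synthesis, by 0.92 ± 0.39.

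Survival and early response genes differed by less than 2-fold in most members. Of 15 BCL2 family genes 2 had separate groups, both higher at 1wk WD. *Bcl2l1*, which encodes the protective BCL-XL, was at 1510, 1136, 1367, 1287 and 1249 against 3096, 2704 and 1653 (0.88 ± 0.24). It was called without replicate 3 (1.15, adjusted p = 0.0371, limma). *Bmf*, which promotes cell death, was at 3812, 3824, 2124, 2389 and 3598 against 6338, 5192 and 5265 (0.87 ± 0.25). *Myc*, a growth-promoting transcription factor, was at 1874, 2679, 2143, 3596 and 3467 against 1469, 1631 and 1296, lower without overlap (-0.87 ± 0.25). *Nr4a2*, an early response nuclear receptor, was at 1095, 911, 1536, 691 and 834 against 1652, 2266 and 1810 (0.96 ± 0.28). *Nr4a2*, *Btg2* and *Fosb* were the 3 of 26 immediate early genes that were higher without overlap, and *Myc* and *Fosl1* the 2 that were lower. *Fev*, a serotonergic transcription factor of immature β cells, was at 157, 91, 168, 71 and 108 against 63, 63 and 21. *Aldh1a3*, a marker of dedifferentiated β cells, was at 271, 235, 242, 267 and 266 against 814, 587 and 260, with replicate 3 inside the Dox range.

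Through matrix, integrin and growth factor genes β cells sense their surroundings, and in each of these lists more genes were at least 2-fold higher without 1wk WD replicate 3 than with it, as were more of all genes (17.6 against 9.79%). Of 26 integrins 9 were at least 2-fold higher and 0 lower (12 and 0 without replicate 3), among them *Itgae*, *Itgax*, *Itgb2* and *Itgam*, which leukocytes use. *Itgae* was at 483, 415, 569, 1000 and 400 against 3625, 2204 and 491 (1.55 ± 0.60). *Itgb2* was at 83, 112, 97, 571 and 58 against 1122, 549 and 136 (1.80 ± 0.86). In both the low withdrawal library was replicate 3, and the differences without it were 2.39 and 2.64. *Itgam* was highest in replicate 3 instead, and its difference of 1.83 ± 0.96 became 1.05. *Itga4* was the only integrin with separate groups, at 3111, 2993, 2885, 3527 and 3111 against 3947, 4076 and 3733 (0.33 ± 0.16). Among 32 matrix proteases and their inhibitors *Adam23* and *Adam8*, both surface proteins of the ADAM family, differed by 1.28 ± 0.43 and 1.45 ± 0.55 with overlap, and by 1.83 and 2.04 without replicate 3. In that list 4 genes were at least 2-fold higher, and 14 without replicate 3. *Lamb3*, a basement membrane laminin chain, was at 20, 12, 17, 15 and 4 against 66, 60 and 127 (2.62 ± 0.74), the only 1 of 23 basement membrane genes without overlap, while 2 were at least 2-fold higher, and 9 without replicate 3. Over 20 interstitial matrix genes the median turned from -0.32 to 0.93 without replicate 3, and at least 2-fold higher were 1 with it and 7 without it. *Eln*, elastin, was at 304, 229, 623, 397 and 70 against 4067, 3472 and 494 (2.87 ± 0.83). Of 25 growth factor receptors 4 were at least 2-fold higher and 0 lower, and 9 were higher without replicate 3. *Erbb3*, a receptor for neuregulins that glia also express, was at 210, 248, 232, 142 and 148 against 403, 1041 and 261, and was the only receptor without overlap (1.32 ± 0.48). *Tgfbr3* and *Egfr* reached 6941 and 13705 in 1wk WD replicate 1 but lay within the Dox range in replicate 3, at 1675 and 4815.

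Acinar, stromal and endothelial genes varied widely between libraries of the same time point. Of 18 acinar markers 17 were at least 2-fold higher, but in 0 did the groups separate. *Ctrl*, a chymotrypsin of acinar cells, was at 864, 289, 608, 65 and 21 at 1wk Dox and at 51757, 9158 and 95 in 1wk WD replicates 1, 2 and 3. Without replicate 3 the list's median went from 3.06 to 6.61, and without replicate 1 to 0.91. *Pdgfra* and *Dcn*, of fibroblasts, were at 824 to 2222 and 2331 to 5495 at 1wk Dox, and at 14446, 9646 and 291 and 20677, 20646 and 1208 at 1wk WD. The median of 13 stromal and pericyte markers turned from -0.54 to 0.87 without replicate 3. Pericyte *Rgs5* was at 320202, 62837, 153284, 292228 and 55191 against 110039, 119247 and 10842. Endothelial *Kdr*, the receptor for VEGF-A, was at 7106, 2846, 3040, 483 and 50 against 118, 433 and 1702, and *Cdh5* at 4829, 1394, 2033, 88 and 19 against 9, 130 and 1803. Endothelial genes thus ranged over more than the difference between groups, and 10 of 13 had a lower mean at 1wk WD. At least 2-fold lower were 5, and 9 without replicate 3, where the share of all genes lower was 7.08%. Their median of -0.75 was -1.60 without 1wk WD replicate 3 but -0.10 without 1wk WD replicate 1. Of 7 Schwann cell and glial markers 5 were at least 2-fold higher, and 6 without replicate 3. The mean log2 score of this list was 6.02 to 7.06 in 1wk Dox and 7.40 to 7.89 in 1wk WD libraries, so that the groups were apart. By share of the summed score they overlapped, at 0.00361 to 0.00798% in 1wk Dox and 0.00472 to 0.0177% in 1wk WD libraries. Of its members *Foxd3* and *Gfap* did not overlap. *Foxd3*, a neural crest factor, was at 68, 34, 18, 18 and 24 against 124, 239 and 77 (2.18 ± 0.68).

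**Figure D4:**
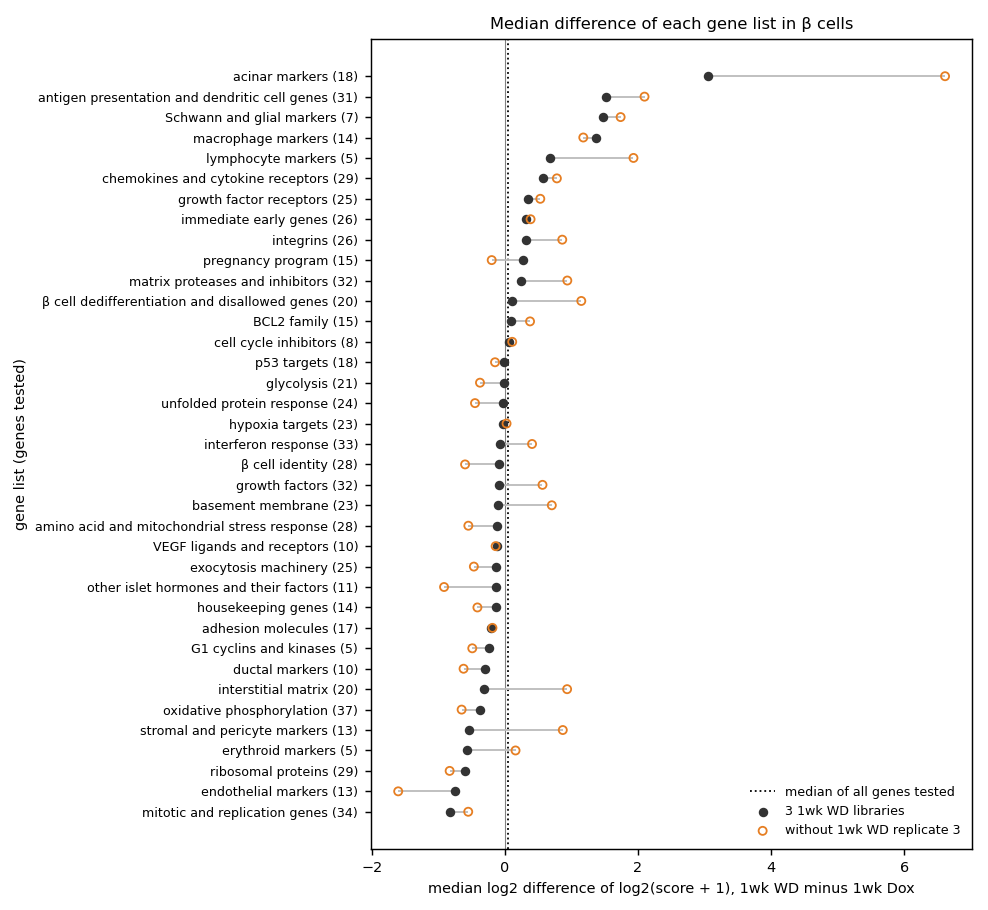
Median log2 difference (1wk WD minus 1wk Dox, log2 of score + 1) of each gene list, with all 3 1wk WD libraries (filled) and without replicate 3 (open), and the median of all genes tested as a dotted line. Acinar markers run from 3.06 to 6.61 and stromal markers from -0.54 to 0.87, whereas mitotic genes (-0.82 and -0.55) and MΦ markers (1.37 and 1.18) keep their side of 0.

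Besides the β cell identity and ribosomal protein genes, some lists held no gene at least 2-fold apart with all 8 libraries. These were the 24 unfolded protein response genes (median -0.02), the 25 exocytosis genes (median -0.14) and the 5 G1 cyclins and kinases (median -0.23). Without replicate 3 their medians were -0.45, -0.47 and -0.49, and at least 2-fold apart were 0, 3 and 1 genes. Interferon response genes had a median of -0.08 over 33 genes, and p53 targets -0.02 over 18, and 0 genes of either list passed an unadjusted p of 0.05 at a 2-fold difference with all libraries. Without replicate 3 the interferon median was 0.41, with 6 genes at least 2-fold higher. VEGF ligands and receptors had a median of -0.12 over 10 genes.

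The 137 genes called higher without 1wk WD replicate 3 were largely not shared by that library. In 96 of them replicate 3 lay below the 1wk Dox mean, and in 20 it lay above every 1wk Dox library. Their median difference was 2.46 for replicates 1 and 2 and -0.52 for replicate 3. List members among them included *Pdgfra* (3.07, adjusted p = 0.0132), *Dcn* (2.36, adjusted p = 0.0239), *Eln* (3.84, adjusted p = 0.0496), *Tgfbr3* (1.74, adjusted p = 0.0334) and *Egfr* (1.20, adjusted p = 0.0489, all limma). *Pdgfra* and *Dcn* are the stromal markers among them, and *Matn2*, at 1.58 with an adjusted p of 0.0332 (limma), is the pregnancy program gene that also stood above the Dox group in replicate 3.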

How the data were processed

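RNA of sorted β cells was amplified with the NuGEN Ovation system and sequenced by the authors, who used TopHat2 2.0 for alignment to mm9 and Avadis NGS for TMM normalization. What they deposited are scores, whole numbers from 1 upwards, from which reads could not be recovered, so depth and the precision of low scores are unknown. Annotation version, strand setting and handling of shared reads are not given in the sources used here, so overlapping genes and close paralogs, such as the trypsin and class II genes, are uncertain. The table holds 22850 genes, and 6 of its 38 sample columns, which match no sample analysed here, were not used in any step.

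Groups follow the labels. The limma package (3.58.1, R 4.3.3) was run on log2(score + 1) of the 1wk WD and 1wk Dox β cell libraries, with empirical Bayes moderation and a trend, for genes averaging 20 or higher in either group. Calls needed a 2-fold difference together with a Benjamini-Hochberg adjusted p below 0.05. The interaction with cell type used 6 MΦ libraries of the same time points. Library measures were compared with exact permutation tests (scipy). The gene lists were described by counts and medians. The genes named are list members (smallest p, highest score, or defining markers), genes called, and in each direction the 10 with the smallest p among those at least 2-fold apart, not overlapping, and with a mean of at least 100 in the higher group. Some genes that this rule names are not reported here. Members and lists were chosen with earlier results of these data known. The labels do not say that replicate numbers mark shared animals, and the main fit has no block.

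The fit was tested on simulated data of the same group sizes, in which 50 genes were changed per fold size. Over 15659 genes it recovered 4% of genes changed 2-fold, 40% of those changed 4-fold, 78% of those changed 8-fold and 68% of those changed 16-fold, with 5 false calls. For the interaction, over 13784 genes, these were 6, 32, 66 and 72%, with 7 false calls. Alternatives were other pseudocounts (0.1 and 20), filters, scalings and moderation, library weights, a replicate block, a fit of all 3 time points, folds of arithmetic means, the unadjusted p, and leaving out each library. Promoters are from RefSeq (GRCm38.p6), not the build of the files.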

Additional observations from a re-analysis of the deposited data

Results flagged for a closer look

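In 6 cases 1wk Dox replicate 4 lay far from the other 4 libraries of its group. These were *H2-Eb1* (3745), *H2-Ab1* (9639), *H2-Aa* (7005), *Cd8a* (5168), *Itgb2* (571), where it was the highest, and *Btg2* (4509), where it was the lowest. In *Fcgr2b* replicate 2 was the low library at 28. In all, 7 of 107 genes and library measures were so marked, where chance marks about 1 in 20 groups. Groups of 3 libraries were not examined in this way.

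*Fcgr2b* also differed between cell types, since its difference between 1wk WD and 1wk Dox was higher in β cells than in MΦs by 3.16 on the log2 scale (interaction, adjusted p = 0.0204, limma). That call was lost without any 1 of the 6 MΦ libraries, without 1wk WD β cell replicate 2, and with the replicate number as a block.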

How the results depend on the processing

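With all 8 libraries 0 genes were called, and 0 under every alternative except 3. Without the trend of the spread 2 were called (*Clca2* and *Fgfbp1*, the latter listed at 1 in all 1wk Dox libraries), with library weights 2627, and without 1wk WD replicate 3 141, so that leaving out 1 library gave 0 to 141. The weights ran from 0.197 for 1wk WD replicate 3 to 23.8 for replicate 2 and had not converged. By an unadjusted p 636 genes passed. Of these 447 were higher, with 267 at a minimum mean of 200, 277 in the fit of all 3 time points, 2156 with library weights and 285 to 1372 on leaving out 1 library. The 189 lower became 99 at a minimum of 200, 926 with weights and 143 to 467 on leaving out 1 library. The interaction called 1 gene, and 4 without the filter, 2 without the trend, 55 with weights, 0 with the replicate block, also as a block across cell types (chosen after seeing the data), and 0 to 84 on leaving out 1 library.

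With the replicate block 0 genes were called between the β cell groups. Deviations of same-numbered libraries correlated at 0.26, -0.09 and 0.00, and not every library correlated best with its own number, so the pairing was not used. Between β cell and MΦ libraries of the same number and time point the correlations were 0.16, 0.05, 0.02, 0.14 and 0.08.

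On leaving out 1 library the difference in the share of *Ins1* and *Ins2* ran from -1.77 to 10.5 percentage points, in the share of the 10 highest genes from -2.13 to 10.2, and in genes above 1 from -154 to 214 (180 for genes at 20 or more). Log2 differences ran from -0.35 to 1.68 (*Ins1*), -0.69 to 1.56 (*Ins2*), -0.32 to 0.58 (*Mafa*), -0.33 to 0.56 (*Pdx1*), -0.077 to 1.03 (*Slc2a2*), -0.63 to 0.45 (*Sst*), -1.50 to 2.11 (*Cd8a*), -0.032 to 1.03 (*Prlr*) and -3.72 to 0.031 (*Cdh5*). With weights *Ins2* was at -0.076, *Mafa* at -0.41, *Pdx1* at -0.37 and *Cd8a* at -0.27, with quantile normalization *Ins2* at -0.26, and by arithmetic means *C1qa* at 0.37. The cause was not tested. The other genes named with values in the report kept their direction in the settings that tested them. *C1qb* fell below the score filter without 1wk WD replicate 3, where the other 1wk WD scores were 1 and 28, and was not tested there. The genes named only for a count (*Kpna2*, *Nap1l2*, *Aard*, *Clca2* and *Fgfbp1*) were not examined. Over all lists and settings, 361 of 370 medians moved by less than the spread between libraries. That spread includes 1wk WD replicate 3, and a median could change sign within it. That of β cell identity genes ran from -0.60 to 0.38 on leaving out 1 library.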
